A study of Mus musculus with 9 samples.

Results

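Macrophage lineage transcription factors were examined as a set of 9 genes, Spi1, Cebpa, Cebpb, Pparg, Rxra, Bhlhe40, Bhlhe41, Maf and Gata6, chosen by symbol from the 24346 gene symbols measured in every sample. The data were RNA sequencing of 9 samples of macrophages sorted from the lungs of female C57BL/6 mice at postnatal week 10, with 3 samples per group, each counted as 1 mouse. Ctrl-AM were alveolar macrophages (AMs) of mice that received vehicle in the left lung. Tumor-AM were AMs of mice whose left lung was injected with LLC-tdTomato, which is Lewis lung carcinoma, a mouse lung cancer cell line that grows in this strain, carrying a red fluorescent protein. Tumor-macrophage were the tumor-associated macrophages (TAMs) of such mice. All 3 populations were sorted as CD45+ autofluorescent cells, with AMs taken as Siglec-F+ and TAMs as Siglec-F-, F4/80+ and CD11b+. The labels name no mutation or transgene in any group, whether Tumor-AM and Tumor-macrophage of a number came from the same animal is not stated, and the model rests on 1 tumor line injected with Matrigel. Values were FPKM, fragments scaled to transcript length and to the number mapped in the library, so that levels of different genes can be set side by side per length. In such bulk samples, fewer cells of a type and less RNA per cell cannot be told apart.

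Depth was estimated from the steps of low values at 10100000 to 12700000 reads per library, and it did not differ detectably between groups (exact permutation test, two-sided, p = 0.2 to 0.3, where 3 samples against 3 cannot go below 0.1). Expression of the AM marker list fitted the AM labels. All 12 markers reached 1 FPKM in every AM sample, and their summed level was 32174 to 37579 FPKM in Ctrl-AM and 27952 to 44342 FPKM in Tumor-AM, against 283 to 582 FPKM in Tumor-macrophage. Of the 8 TAM and monocyte markers 7 reached 1 FPKM in every Tumor-macrophage sample, at a summed 344 to 365 FPKM. That list gave 18.2 to 21.2 FPKM in Ctrl-AM and 25.1 to 31.2 FPKM in Tumor-AM. Siglecf, Itgam and Adgre1 encode proteins used in the sort, so their levels are no finding between AMs and TAMs. The AM sum includes Siglecf and the TAM sum Itgam, which averaged 147 FPKM of a mean sum of 357 FPKM in Tumor-macrophage. Most of the AM sum is 1 gene, Chil3, which averaged 25739 of 34948 FPKM in Ctrl-AM and 26233 of 33768 FPKM in Tumor-AM. The sum therefore says little about the other AM markers, such as Marco at 60.2, 329 and 95.3 FPKM in the Tumor-AM samples.

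Macrophages share a core of transcription factors on which tissue-specific factors act. PU.1, encoded by Spi1, is the master regulator of the myeloid lineage, and it opens macrophage enhancers together with the C/EBP factors. In the lung, GM-CSF and TGF-β induce PPARγ, which with its partner RXRα switches on the lipid-handling program of AMs, the cells that clear surfactant. BHLHE40 and BHLHE41 are repressors of the basic helix-loop-helix class that maintain AM identity and self-renewal, and c-MAF marks many other tissue macrophages and is kept low in AMs. GATA6 is the corresponding tissue factor of large peritoneal macrophages.

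Promoter sequences were available from RefSeq on GRCm38.p6 for 5 of the 9 members, in 8 start-site windows. They were searched over the 250 bases before each start for 6 binding motifs on both strands: the E-box CACGTG bound by BHLHE40 and BHLHE41, the C/EBP motif TTGCNNAA, the PU.1 motif GAGGAAGT, the repeat bound by RXR heterodimers, which is AGGTCA given 2 times with 1 base between, the MAF core site TGCTGA and the GATA motif AGATAA. Of the 8 windows 2 held a match. They are printed with the windows of Cebpa and Cebpb, the pair of related genes whose levels moved in opposite directions in Tumor-AM, 5′ to 3′ along the gene's strand, in lower case with matches in capitals and without bases that lie in an annotated exon.
Pparg, start site 115422066, chr6:115421816-115422065, plus strand: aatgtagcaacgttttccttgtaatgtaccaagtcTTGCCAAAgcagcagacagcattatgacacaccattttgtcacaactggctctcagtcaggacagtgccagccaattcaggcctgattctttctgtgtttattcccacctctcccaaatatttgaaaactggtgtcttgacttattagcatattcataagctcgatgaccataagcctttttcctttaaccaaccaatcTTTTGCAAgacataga
Bhlhe41, start site 145865420, chr6:145865559-145865670, minus strand: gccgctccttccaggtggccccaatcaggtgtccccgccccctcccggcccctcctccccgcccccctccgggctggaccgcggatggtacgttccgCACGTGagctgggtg
Cebpa, start site 35119293, chr7:35119043-35119292, plus strand: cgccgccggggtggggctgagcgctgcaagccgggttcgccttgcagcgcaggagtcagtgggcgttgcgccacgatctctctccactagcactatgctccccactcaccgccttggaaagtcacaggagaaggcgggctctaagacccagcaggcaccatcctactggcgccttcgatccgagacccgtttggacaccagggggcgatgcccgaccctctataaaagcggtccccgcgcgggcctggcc
Cebpb, start site 167688915, chr2:167688665-167688914, plus strand: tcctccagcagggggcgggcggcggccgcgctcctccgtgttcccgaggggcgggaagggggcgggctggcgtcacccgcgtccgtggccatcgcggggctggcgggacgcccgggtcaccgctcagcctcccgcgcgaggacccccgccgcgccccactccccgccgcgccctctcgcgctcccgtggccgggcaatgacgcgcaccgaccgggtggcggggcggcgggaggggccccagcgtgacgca

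The Pparg window precedes the most downstream of its 3 RefSeq start sites, inside the gene body, and is 40.8% G or C. It held the C/EBP motif at 215 to 208 and again at 16 to 9 bases before the start, a motif present in 9.56% of 32851 promoter windows of this length. The Bhlhe41 window held the E-box at 153 to 148 bases before the start, and 6.02% of all windows hold it. The windows of Cebpa and Cebpb, 66.4% and 81.6% G or C, held none of the 6 motifs. These are matches of letters, and no binding was measured. Gene-level FPKM does not tell which of the Pparg start sites was used.

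The members spanned nearly the whole range of expression. In Ctrl-AM, mean levels ran in the order Cebpb (1079 FPKM), Spi1 (306 FPKM), Bhlhe40 (213 FPKM), Pparg (202 FPKM), Cebpa (45.7 FPKM), Rxra (23.9 FPKM) and Bhlhe41 (15 FPKM), with Maf and Gata6 below 0.1 FPKM. Only Bhlhe40 and Pparg had overlapping samples among the 7 expressed neighbours of this order. By mean level among all 24346 symbols, Cebpb ranked 60 for Ctrl-AM, 42 for Tumor-AM and 119 for Tumor-macrophage. In Tumor-AM the order of means was the same for these 7 genes, with Pparg at 140 FPKM now apart from Bhlhe40 at 260.0 FPKM, whose highest sample touched the range of Spi1. In Tumor-macrophage the order was Cebpb, Spi1, Bhlhe40, Cebpa, Pparg, Rxra, Maf and Bhlhe41, and among these neighbours only Pparg and Rxra overlapped. Pparg ranked 495 for Ctrl-AM, 699 for Tumor-AM and 4850 for Tumor-macrophage.

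**Figure D1:**
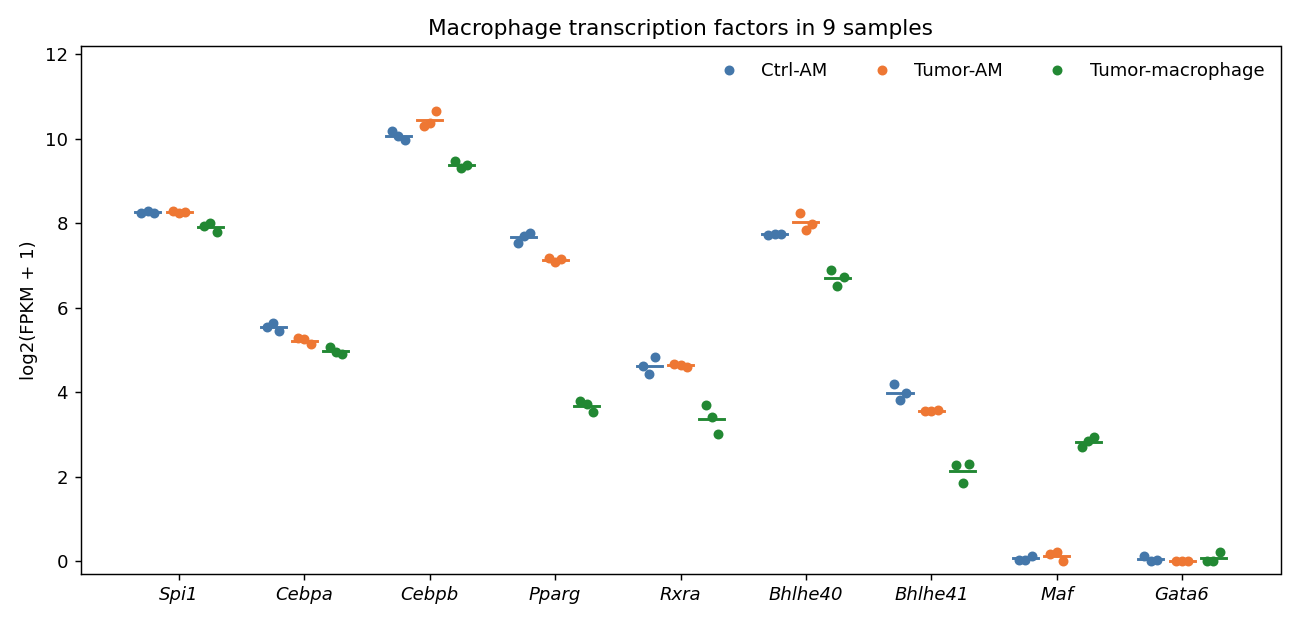
Levels of the 9 members as log2(FPKM + 1) on the vertical axis, with 1 point per sample, 3 samples per group and a bar at the group mean. Pparg falls from 202 FPKM in Ctrl-AM to 11.8 FPKM in Tumor-macrophage, Maf is above 1 FPKM in Tumor-macrophage alone, and Spi1 lies between 222 and 314 FPKM in all 9 samples.

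Members were tested as log2(FPKM + 1) with limma over all 10686 genes with at least 1 FPKM in at least 3 samples, and a gene was called at an adjusted p under 0.05. Of the 9 members 8 passed this filter, Maf only through Tumor-macrophage, and Gata6 did not pass. Between Tumor-AM and Ctrl-AM, 3 of the 9 members were called, Cebpb as higher and Pparg and Cebpa as lower. Of all genes tested, 10.3% were called in this comparison, 7.11% as higher and 3.18% as lower. For 5 members the groups did not overlap, Cebpb and Bhlhe40 being higher and Pparg, Cebpa and Bhlhe41 lower, against 32.3% of all genes, 18.9% higher and 13.4% lower. The balance of directions depends on how libraries are scaled, since 760 genes were higher and 340 lower as deposited, 623 and 443 after quantile normalization, and 475 and 824 after rescaling to TPM, which gives every sample the same sum. Between Tumor-macrophage and Tumor-AM all 8 tested members were called, 7 as lower and Maf as higher, where 48.6% of all genes were called, 24.4% as lower and 24.2% as higher, and 55.3% had groups that did not overlap, 27.6% higher and 27.8% lower. The same 8 were called against Ctrl-AM, again 7 as lower, where 54.8% of all genes were called, 27.7% as higher and 27.1% as lower, and 62.3% did not overlap, 31.1% in each direction. Rescaling to TPM moved the split of all genes there from 2960 higher and 2900 lower to 2130 and 4409, and between the tumor groups from 2588 and 2603 to 2129 and 3129, and left the direction of every called member as it was. The median log2 difference of the 8 tested members was 0.0073 in Tumor-AM against Ctrl-AM, -1.16 in Tumor-macrophage against Tumor-AM and -0.86 in Tumor-macrophage against Ctrl-AM, beside 0.014, 0.0012 and -0.0082 for all genes. Each pair of these comparisons shares a group of samples, so they are not independent of each other, and the direction of Maf was set by the filter. Counts of called genes in the lists below stand beside these same shares of all genes.

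**Figure D2:**
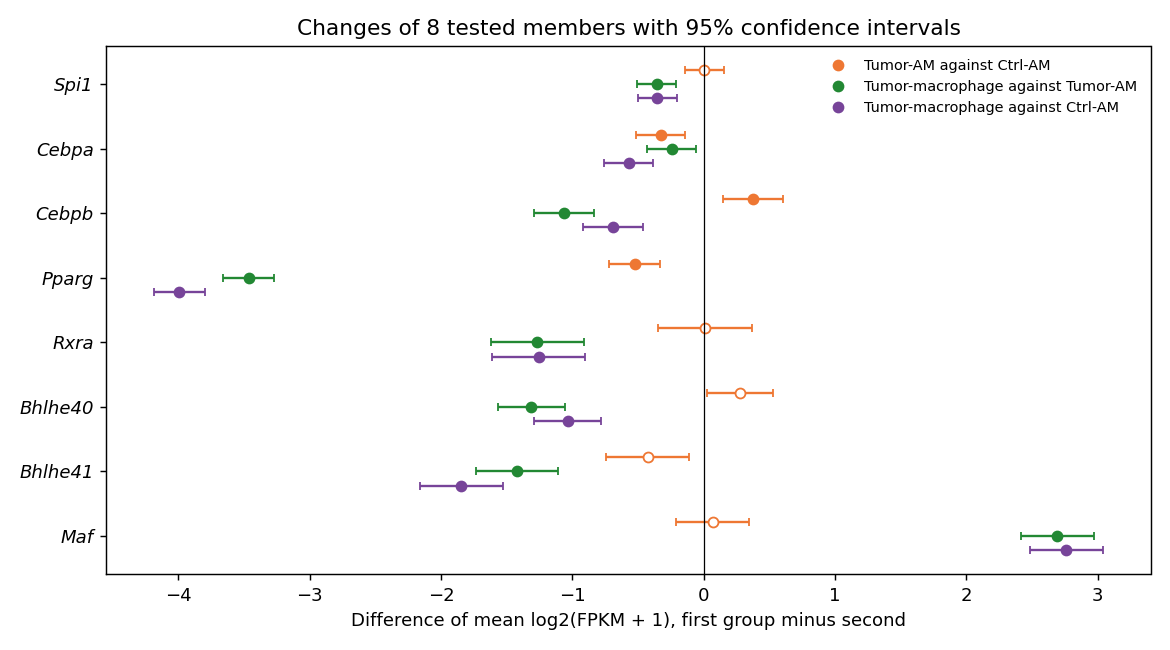
Differences of mean log2(FPKM + 1) between groups for the 8 tested members, as points with the 95% confidence interval of the limma fit over 9 samples. Filled points passed the threshold and open points did not, and 7 of 8 members lie left of 0 in both Tumor-macrophage comparisons, from -3.99 for Pparg to -0.24 for Cebpa.

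Spi1 was nearly level between the AM groups and lower in TAMs. It lies on chromosome 2 (GRCm38, 91082390 to 91115756, plus strand) and measured 304, 311 and 302 FPKM in Ctrl-AM, 314, 300.3 and 306 FPKM in Tumor-AM and 243, 254 and 222 FPKM in Tumor-macrophage. The AM groups overlapped fully, and all 3 TAM samples lay below all 6 AM samples. The log2 difference of Tumor-AM and Ctrl-AM was 0.0047 with a 95% confidence interval of -0.14 to 0.15 (limma, adjusted p = 0.980), and it turned to -0.13 after rescaling to TPM. In Tumor-macrophage Spi1 was at 78.1% of its Tumor-AM level, a log2 fall of 0.36 (limma, SE 0.0663, adjusted p = 0.0011). Among 8 genes known to be driven by PU.1, 3 rose in Tumor-AM and none fell, namely Cd68, a lysosomal macrophage marker, Itgam, the CD11b integrin chain, and the scavenger receptor Msr1. Msr1 averaged 15 ± 3.35 FPKM in Ctrl-AM, 60.6 ± 8.59 FPKM in Tumor-AM and 305 ± 69.0 FPKM in Tumor-macrophage (SD, n = 3). Itgam and Adgre1 of this list belong to the sort, and of the other 6, 2 rose in Tumor-macrophage against Tumor-AM, Msr1 and the M-CSF receptor gene Csf1r, which averaged 104, 132 and 532 FPKM in the 3 groups. Btk and Tlr4 fell, and the median log2 difference of the 6 was 0.009.

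Cebpa and Cebpb encode closely related basic leucine zipper factors, C/EBPα being required for AM development and C/EBPβ being induced by inflammatory signals. Cebpa (chromosome 7, 35119293 to 35121928, plus strand) measured 45.8, 49.0 and 42.4 FPKM in Ctrl-AM, 37.7, 37.0 and 34.0 FPKM in Tumor-AM and 32.8, 29.8 and 28.7 FPKM in Tumor-macrophage. Every group lay below the one before it with no overlap. Cebpa fell by 0.33 in Tumor-AM relative to Ctrl-AM in log2 units (limma, SE 0.0844, adjusted p = 0.0357) and by 0.24 in Tumor-macrophage relative to Tumor-AM (adjusted p = 0.0349). Either call was lost when some single samples were left out, with the adjusted p of the first reaching 0.130 without Ctrl-AM replicate 2 and that of the second 0.111 without Tumor-macrophage replicate 3. The fall of 0.57 from Ctrl-AM to Tumor-macrophage kept its call in all 18 alternatives (adjusted p = 0.000195).

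Cebpb (chromosome 2, 167688915 to 167690418, plus strand) measured 1165, 1077 and 995 FPKM in Ctrl-AM, 1267, 1328 and 1618 FPKM in Tumor-AM and 712, 630 and 664 FPKM in Tumor-macrophage. All Tumor-AM samples lay above and all TAM samples below the Ctrl-AM range. The rise in Tumor-AM was 0.37 in log2 units (limma, SE 0.102, adjusted p = 0.0446), to 130% of Ctrl-AM, and it lost its call in 12 of 18 alternatives, with an adjusted p of up to 0.162 when Ctrl-AM replicate 3 was left out and 0.126 without Tumor-AM replicate 3, its highest sample. In Tumor-macrophage Cebpb fell by 1.06 relative to Tumor-AM (SE 0.102, adjusted p = 9.15e-06) and kept its call in every alternative. Of the windows of 75 bases on Cebpb transcripts, 16.7% are shared with exons of Tmem189, which measured 145 to 154 FPKM in Ctrl-AM, 173 to 184 FPKM in Tumor-AM and 171 to 202 FPKM in Tumor-macrophage. The use of strand was not stated, and the part of shared reads in the Cebpb values was not tested.

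Within a sample, the log2 ratio of Cebpb to Cebpa depends little on how the library was scaled. For the Ctrl-AM samples it was 4.64, 4.43 and 4.52, for Tumor-AM 5.04, 5.13 and 5.53, and for Tumor-macrophage 4.40, 4.36 and 4.48. The ratio was higher in every Tumor-AM sample than in all other samples, by 0.70 on average against Ctrl-AM, while the ranges of Ctrl-AM and Tumor-macrophage overlapped. Each separation gave an exact permutation p of 0.1 (two-sided), the smallest that 3 against 3 allows, and adjusted over 15 ratio tests no p was below 0.115. Cebpb was higher and Cebpa lower in every Tumor-AM sample than in Ctrl-AM, so this ratio had to separate the AM groups and adds no support. Of the 15 tests 13 were without overlap, and the share of such pairs among all genes was not computed. Of the other C/EBP genes 2 fell in Tumor-AM, Cebpd from 13.1 ± 0.343 to 8.42 ± 1.41 FPKM (SD, n = 3, limma, adjusted p = 0.0224) and Cebpg from 18.6 ± 0.680 to 14.3 ± 1.85 FPKM (adjusted p = 0.0455). Those calls held in 12 and 7 of 18 alternatives. Cebpe averaged below 0.2 FPKM in every group.

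Pparg had the largest log2(FPKM + 1) difference of the 8 tested members, a scale that understates that of Maf. It encodes PPARγ, the lipid-sensing nuclear receptor that AMs need to mature, and lies on chromosome 6 (115360951 to 115490399, plus strand). Pparg measured 185, 206 and 216 FPKM in Ctrl-AM, 144, 135 and 140 FPKM in Tumor-AM and 12.8, 12.1 and 10.5 FPKM in Tumor-macrophage. The 3 groups were fully separated, in steps of unequal size. Tumor-AM kept 69.1% of the Ctrl-AM level, a log2 fall of 0.53 (limma, SE 0.0875, adjusted p = 0.00455) that was called in all 18 alternatives, with values from -0.67 to -0.48. Tumor-macrophage held 8.43% of the Tumor-AM level, a fall of 3.46 (SE 0.0875, adjusted p = 4.6e-10).

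Rxra, which encodes RXRα, a partner of PPARγ on DNA, lies on chromosome 2 (27676440 to 27762957, plus strand). It measured 23.6, 20.5 and 27.5 FPKM in Ctrl-AM, 24.2, 24.1 and 23.3 FPKM in Tumor-AM and 11.9, 9.62 and 7.09 FPKM in Tumor-macrophage. The Tumor-AM samples lay inside the Ctrl-AM range, and the TAM samples lay below all AM samples. The log2 difference of Tumor-AM and Ctrl-AM was 0.010 with a 95% confidence interval of -0.35 to 0.37 (limma, adjusted p = 0.982). A change within that interval was thus not detectable in either direction. After rescaling to TPM the difference turned to -0.12. Rxra fell by 1.27 in Tumor-macrophage relative to Tumor-AM (SE 0.160, adjusted p = 7.37e-05). The log2 ratio of Pparg to Rxra averaged 3.03 for Ctrl-AM, 2.5 for Tumor-AM and 0.30 for Tumor-macrophage with no overlap between any groups (exact permutation p = 0.1 each). Of the relatives, Rxrb fell in Tumor-macrophage, at 17.0, 14.3 and 11.2 FPKM on average in the 3 groups, Ppard stayed below 1 FPKM on average in each group, and Rxrg was listed at 0 in all 9 samples.

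The 9 target genes of PPAR and RXR receptors, which encode proteins of fat uptake, storage and oxidation, were lower in TAMs with 1 exception. Against Tumor-AM, 8 fell and 1 rose in Tumor-macrophage, with a median log2 difference of -2.03 beside 0.0012 for all genes. Cidec, a lipid droplet protein, was at 392 ± 20.4 FPKM in Ctrl-AM, 239.7 ± 43.7 FPKM in Tumor-AM and 0.197 ± 0.340 FPKM in Tumor-macrophage (SD, n = 3), and Angptl4, a secreted inhibitor of lipoprotein lipase, at 214, 198 and 8.62 FPKM on average. Cidec and Pdk4 reached 1 FPKM in no Tumor-macrophage sample and so passed the filter only through AMs. Fabp5, a fatty acid binding protein, was the exception, at 372 ± 7.27, 550.1 ± 34.8 and 997 ± 93.5 FPKM. In Tumor-AM, 3 of the 9 fell relative to Ctrl-AM, namely Plin2, a droplet coat protein, Cidec, and Pdk4, a kinase that restrains glucose oxidation, while Fabp5 rose. Pdk4 averaged 11.8 ± 1.34 FPKM in Ctrl-AM and 6.85 ± 2.69 FPKM in Tumor-AM (limma, adjusted p = 0.0405). The 3 falls held in 7 of 18 alternatives for Pdk4 and 10 of 18 for Plin2 and Cidec, and the rise of Fabp5 in all 18. The differences of Cd36, Fabp4 and Angptl4 between the AM groups were -0.69, -0.45 and -0.11 (limma, adjusted p = 0.122, 0.175 and 0.448). Those of Lpl and Cpt1a were 0.17 and -0.031, and none of these genes passed the test. Of the genes of cytokine signals upstream of Pparg, Csf2ra, the specific chain of the GM-CSF receptor, rose from 201 ± 12.3 to 262 ± 11.8 FPKM (limma, adjusted p = 0.00838) and was the 1 of 12 tested genes of the upstream signalling list to pass there, a call lost after rescaling to TPM. The other receptor chain gene Csf2rb, the related gene Csf2rb2 and the kinase gene Jak2 had log2 differences of 0.23, 0.27 and 0.36 (limma, adjusted p = 0.121, 0.122 and 0.056). The median of the 12 was 0.16 beside 0.014 for all genes. Against Tumor-AM, 5 of these 12 fell in Tumor-macrophage, among them Csf2ra, Csf2rb, the shared receptor chain, and Stat5a, its signal transducer, and 4 rose. Of those 4, Csf1, the M-CSF gene, and Smad3, a TGF-β signal transducer, passed the filter only through Tumor-macrophage, which set their direction.

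**Figure D3:**
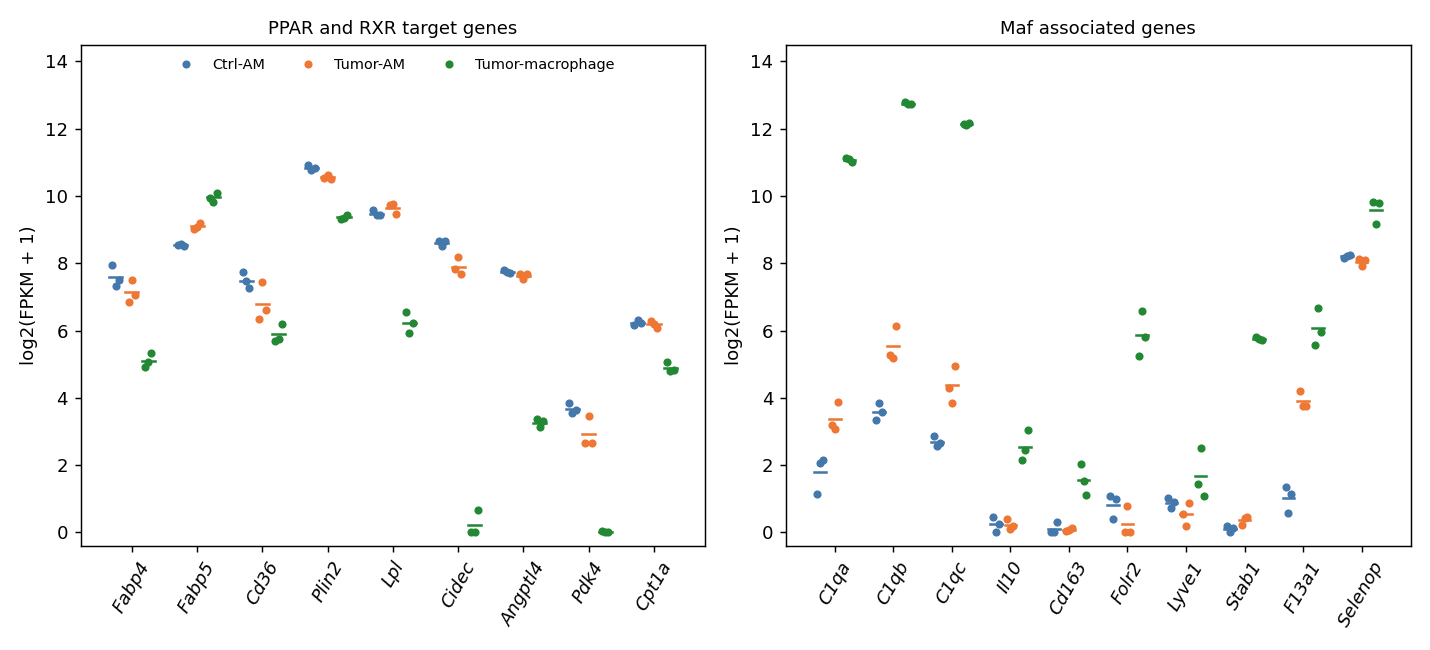
Levels of 9 PPAR and RXR target genes (left) and 10 genes associated with Maf (right), as log2(FPKM + 1) on the vertical axis, with 1 point per sample, 3 samples per group and a bar at the group mean. On the left 8 genes are lower and on the right all 10 are higher in Tumor-macrophage than in Tumor-AM on average. On the right, C1qa, C1qb, C1qc, F13a1 and, below 1 FPKM, Stab1 lie between the other groups in Tumor-AM.

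Bhlhe40 and Bhlhe41, a pair of related repressors with overlapping function in AMs, differed in their pattern. Bhlhe40 (chromosome 6, 108660629 to 108666925, plus strand) measured 210.2, 215 and 215 FPKM in Ctrl-AM, 301, 228 and 251 FPKM in Tumor-AM and 117, 90.0 and 105 FPKM in Tumor-macrophage. Bhlhe41 (chromosome 6, 145858243 to 145865558, minus strand) measured 17.2, 13 and 14.8 FPKM, then 10.8, 10.7 and 11 FPKM, then 3.87, 2.60 and 3.90 FPKM. In Tumor-AM all samples lay above the Ctrl-AM range for Bhlhe40 and below it for Bhlhe41. Neither difference passed the threshold, at 0.27 for Bhlhe40 (SE 0.113, limma, adjusted p = 0.165) and -0.43 for Bhlhe41 (SE 0.142, adjusted p = 0.0891). The difference of Bhlhe41 was called in 3 of 18 alternatives, among them the fit of the compared groups alone (adjusted p = 0.0405), and that of Bhlhe40 in none. Both genes fell in Tumor-macrophage relative to Tumor-AM, Bhlhe40 by 1.31 (adjusted p = 4.05e-06) and Bhlhe41 by 1.42 (adjusted p = 1.22e-05).

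Log2 ratios of Bhlhe40 to Bhlhe41 reached 3.54, 3.95 and 3.77 for Ctrl-AM, 4.68, 4.29 and 4.40 for Tumor-AM, and 4.60, 4.66 and 4.44 for Tumor-macrophage. The ratio was thus higher in both tumor groups than in Ctrl-AM, with no overlap (exact permutation p = 0.1 each), and Tumor-AM and Tumor-macrophage overlapped (p = 0.5). Between the AM groups the separation was given by Bhlhe40 lying above and Bhlhe41 below the Ctrl-AM range, and adds no support. Relative to Spi1 in the same sample, Bhlhe40 averaged -0.52 for Ctrl-AM, -0.25 for Tumor-AM and -1.20 for Tumor-macrophage, again without overlap. Of the windows on Bhlhe41, 14.8% are shared with exons of Gm43909 and of those on Bhlhe40, 0.995% with 0610040F04Rik, and with strand not stated such reads cannot be told apart.

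BHLHE40 and BHLHE41 also belong to the circadian clock, where they repress genes through the E-box. Of 14 clock genes 10 were tested, and none was called between Tumor-AM and Ctrl-AM by limma, where 2 had an unadjusted p under 0.05, Per1 and Cry2. In Tumor-macrophage 3 rose and 4 fell against Tumor-AM. Ciart, a clock repressor, was at 0.951 ± 0.655 FPKM in Tumor-AM and 11.2 ± 3.00 FPKM in Tumor-macrophage, Cry1, another, at 13.4 ± 0.919 and 5.63 ± 1.17 FPKM (SD, n = 3), and the core activators Arntl and Clock fell. Of 7 genes of self-renewal and proliferation, Klf2 and Klf4 rose in Tumor-AM, calls that held in 10 and 12 of 18 alternatives, and rose again in Tumor-macrophage, where the mitotic genes Top2a and Cdk1 rose too. Top2a averaged 6.22, 7.20 and 14.4 FPKM in the 3 groups.

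Maf was almost silent in both AM groups and present in TAMs. It lies on chromosome 8 (115682942 to 115707794, minus strand), encodes c-MAF, and measured 0.0237, 0.0208 and 0.0831 FPKM in Ctrl-AM, 0.126, 0.163 and 0 FPKM in Tumor-AM and 5.47, 6.16 and 6.62 FPKM in Tumor-macrophage. These values stand for about 1.7 to 6.7 reads per Ctrl-AM library, 0 to 11.8 reads per Tumor-AM library and 352 to 478 reads per Tumor-macrophage library. The AM groups overlapped (log2 difference 0.070, 95% confidence interval -0.21 to 0.35), and a difference between them was not detectable at this depth. The difference of Tumor-macrophage and Tumor-AM was 2.69 on the log2(FPKM + 1) scale (limma, SE 0.125, adjusted p = 4.04e-08), a scale that understates changes of so low a gene. Of the windows on Maf 4.02% are shared with exons of Gm15655. Of the small MAF proteins, which lack an activation domain, Maff fell and Mafg rose in Tumor-macrophage relative to Tumor-AM.

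All 10 genes associated with Maf in other macrophages were higher in Tumor-macrophage than in Tumor-AM by the test, but 5 of them (Il10, Cd163, Folr2, Lyve1 and Stab1) passed the filter only through Tumor-macrophage, so their direction was set by the filter, as for Maf. The other 5 rose. The complement genes C1qa, C1qb and C1qc averaged 9.79 ± 3.48, 47.6 ± 19.3 and 20.7 ± 8.47 FPKM in Tumor-AM and 2171 ± 84.1, 6882 ± 147 and 4532 ± 92.8 FPKM in Tumor-macrophage (SD, n = 3). The scavenger receptor gene Stab1 was at 0.293 ± 0.111 and 53.0 ± 1.97 FPKM, the cytokine gene Il10 at 0.173 ± 0.126 and 5.06 ± 2.00 FPKM. In Tumor-AM relative to Ctrl-AM, 4 of the 10 rose and none fell. They were the 3 complement genes and F13a1, a coagulation factor subunit, each called in all 18 alternatives. F13a1 averaged 1.07 ± 0.537 FPKM in Ctrl-AM and 14.1 ± 2.68 FPKM in Tumor-AM. C1qb averaged 11.1 ± 2.16 FPKM in Ctrl-AM, and Tumor-AM lay 0.532% of the way to Tumor-macrophage for this gene and 19.0% for F13a1, in means of FPKM. Ccr2, Itgam and Cx3cr1, which are high in Tumor-macrophage, lay at 7.07%, 2.08% and 0.234% of that way. The part of TAMs or monocytes among the sorted Tumor-AM in these values was not tested. Between the AM groups, Il10, Cd163 and Stab1 had log2 differences of -0.01, -0.03 and 0.25, and Folr2, Lyve1 and Selenop of -0.56, -0.35 and -0.16. None of these passed the test.

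Gata6 was at or near 0 in every sample. It measured 0.0818, 0 and 0.0239 FPKM in Ctrl-AM, 0 in all 3 Tumor-AM samples, and 0, 0 and 0.161 FPKM in Tumor-macrophage, at most about 6.9 reads in a library. The groups overlapped, and no difference was detectable at this depth. Of 8 genes of large peritoneal macrophages 4 passed the filter. Icam2, an adhesion molecule, and Timd4, a receptor for dying cells, rose in Tumor-macrophage relative to Tumor-AM, Timd4 from 0.173 ± 0.10 to 2.96 ± 0.385 FPKM (SD, n = 3), and Tgfb2 fell. Timd4 passed the filter only through Tumor-macrophage and Tgfb2 only through AMs, so the filter set both directions. None of the 4 was called between Tumor-AM and Ctrl-AM by limma, where 0 had an unadjusted p under 0.05. The other GATA genes tested for level, Gata1 to Gata5, averaged below 1 FPKM in every group. The mesothelial markers, which share tissue with GATA6 macrophages, summed to at most 0.729 FPKM in any sample, with Wt1 at 0 in all 9.

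**Figure D4:**
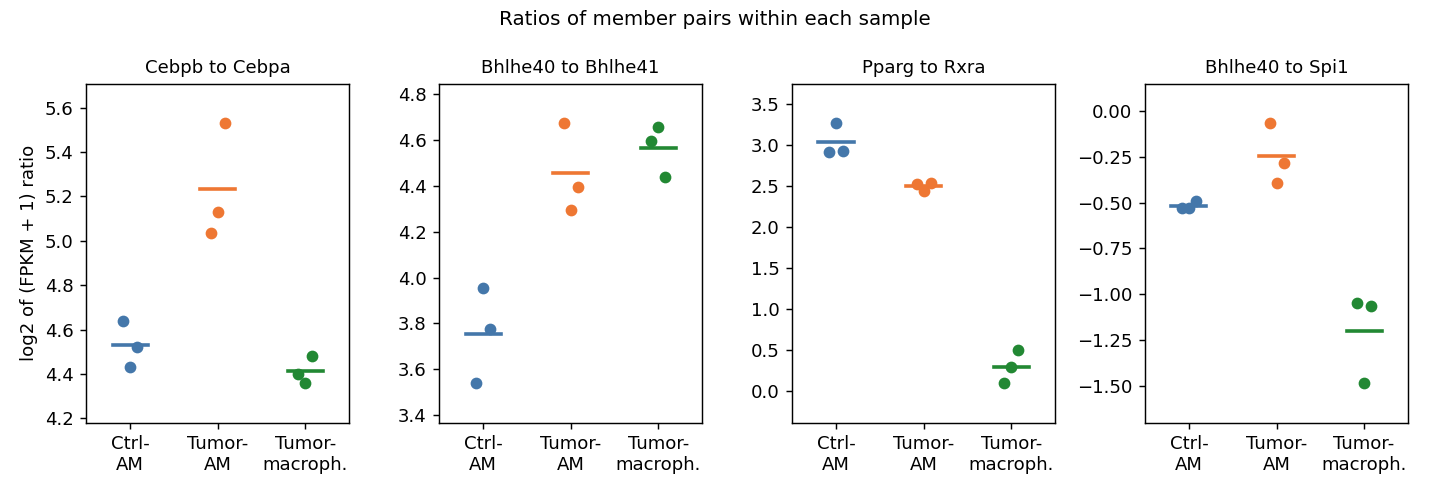
Log2 ratios of (FPKM + 1) between pairs of members within each sample, with 1 point per sample, 3 samples per group and a bar at the group mean. The vertical axes do not start at 0 and differ between panels. The Cebpb to Cebpa ratio peaks in Tumor-AM at a mean of 5.23, the Bhlhe40 to Bhlhe41 ratio is higher in both tumor groups, and the Pparg to Rxra ratio falls from 3.03 to 2.5 and 0.30.

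Other transcription factors of macrophages were examined as a list. Of 20 such genes 17 were tested. Of all genes, 7.11% were called as higher and 3.18% as lower in Tumor-AM relative to Ctrl-AM. In Tumor-AM 7 rose and none fell, namely Irf8, Klf2, Klf4, Zeb2, Nr4a1, Id2 and Ets2, with Ets2 at 40.0 ± 1.57 FPKM in Ctrl-AM and 72.3 ± 9.35 FPKM in Tumor-AM (limma, adjusted p = 0.000507) and Nr4a1, an immediate-early nuclear receptor, at 92.2 ± 11.9 and 178 ± 47.3 FPKM (adjusted p = 0.0107). The call of Zeb2 held in 5 of 18 alternatives, that of Irf8 in 14 and that of Id2 in 17. After rescaling to TPM 3 rose and 1 fell. Against Tumor-AM, 9 rose and 6 fell in Tumor-macrophage, where 24.2% of all genes were called as higher and 24.4% as lower. Irf8, a factor of monocytes, rose to 106 ± 9.35 FPKM from 53.2 ± 5.74 FPKM, and Runx3, 1 of the 9, was at 13.5 ± 1.31 against 0.349 ± 0.0869 FPKM, a direction set by the filter, which it passed only through Tumor-macrophage. Tfec fell from 48.8 ± 5.45 to 13.5 ± 1.11 FPKM and Runx1 from 26.9 ± 2.56 to 13.1 ± 0.791 FPKM. Spic, a relative of Spi1 linked to iron-recycling macrophages, was at 13.6 ± 5.26 FPKM in Tumor-macrophage and 0.928 ± 0.413 FPKM in Tumor-AM, and it too passed the filter only through Tumor-macrophage.

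For the 8 expressed members, the genes with the most similar pattern over the 9 samples were listed by Pearson's r of log2(FPKM + 1), as a description. Lpcat3, an enzyme of membrane phospholipid remodelling, was nearest to Pparg (r = 0.999), followed by Sh2d1b1 and Mgst3. Rbpj, the transcription factor of the Notch pathway, was nearest to Maf (r = 0.998), followed by Vcam1 and Aoah. Eif4b was nearest to Cebpa (r = 0.970), Dirc2 to Cebpb (r = 0.980), Atg5 to Bhlhe40 (r = 0.993), Idh3g to Bhlhe41 (r = 0.994), Acads to Spi1 (r = 0.990) and Mdh1 to Rxra (r = 0.988). Cebpa was the least shared pattern, with 5 of 5336 genes above r = 0.95, against 593 for Pparg and 71 for Cebpb. The 9 samples form 3 groups and share their libraries between genes, so most of such a correlation is the order of the group means.

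Markers of other cell types moved with some groups. Fibroblast markers summed to 3.72 to 6.70 FPKM in Ctrl-AM, 12.8 to 85.3 FPKM in Tumor-AM and 9.84 to 17.1 FPKM in Tumor-macrophage. Of these markers 2 of 3 tested rose in Tumor-AM relative to Ctrl-AM, where 7.11% of all genes were called as higher. T cell markers summed to 3.73 to 5.83 FPKM, 5.71 to 12.6 FPKM and 20.1 to 38.1 FPKM in the same order, B cell markers to 12.7 to 16.9 FPKM, 3.15 to 7.49 FPKM and 31.5 to 58.3 FPKM, and dendritic cell markers to 15.2 to 17.9 FPKM, 7.48 to 14.6 FPKM and 25 to 56.4 FPKM. Against Tumor-AM, 4 of 5 tested T cell markers, 4 of 4 B cell markers and 3 of 5 dendritic cell markers rose in Tumor-macrophage. Of all genes, 24.2% were called as higher there. Cd4 of the T cell markers and Xcr1 of the dendritic cell markers passed the filter only through Tumor-macrophage, which set their direction. Neutrophil markers, with Elane at 0 in all samples, summed to 91.1 to 165 FPKM over the 9 samples, and lung epithelial markers to 42.5 to 227 FPKM. The 227 FPKM was in Ctrl-AM 1, where Scgb1a1 alone measured 169 FPKM. In Tumor-AM relative to Ctrl-AM, 2 of 5 tested neutrophil markers fell, S100a9 and Retnlg, where 3.18% of all genes were called as lower. Of 6 tested epithelial markers 1 rose there, Hopx, from 5.88 to 18.6 FPKM on average, and none fell. NK cell markers reached at most 7.36 FPKM, eosinophil markers 1.35 FPKM with Epx at 0, endothelial markers 8.27 FPKM and erythroid markers 6.03 FPKM. Their part in the members' values was not tested.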

How the data were processed

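RNA was measured in 9 samples of sorted mouse lung macrophages. Full-length cDNA (SMART-Seq HT) was made into Nextera libraries and read single-end over 75 bases. The authors mapped reads to mm10 with TopHat2 2.1.1 and Bowtie2 and deposited FPKM per gene symbol, with Cuffdiff 2.2.1 named in the submitters' processing notes. Annotation, strand use and treatment of multiply mapped reads are not given in the sources used here. FPKM scales to mapped reads and transcript length, so a few abundant RNAs can shift all other values.

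The members and lists were chosen with earlier results of these data known. Values were analysed as log2(FPKM + 1). Genes with at least 1 FPKM in at least 3 of 9 samples were fitted with limma 3.58.1 (R 4.3.3), with an intensity trend, all 9 samples sharing the spread. Tests were two-sided and adjusted by Benjamini-Hochberg over all 10686 genes, with 0.05 as the threshold. Within-sample ratios and depth used exact permutation tests (scipy 1.17.1). The fit was tested on simulated data. P-values measure the spread between 3 samples a group, and read numbers are estimates from the steps of low FPKM values, with counting error besides. Named genes were the 9 members, members of fixed lists, and for each expressed member the 3 genes of mean FPKM of at least 10 with the highest Pearson's r. Positions and shared windows came from GENCODE vM21 (GRCm38). Alternatives were a pseudocount of 0.1, no filter, a filter of 5 FPKM, quantile normalization, TPM, median-ratio scaling, a constant prior variance, a replicate block, a fit of the compared groups alone, and leaving out each sample. Promoter windows came from RefSeq. Some genes of the lists, and a ratio planned with 1 of them, are not reported here.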

Additional observations from a re-analysis of the deposited data

How the results depend on the processing

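Differences and counts were recomputed under 18 alternatives and the within-sample ratios, none of which changed sign, under 12 of them, and 384 log2 differences of members kept their direction and side of the threshold, 27 lost and 3 gained a call, and 8 changed sign. Between Tumor-AM and Ctrl-AM the 3 members called became 1 (Pparg) with no filter and with a constant prior variance, and 1 to 4 when single samples were left out, with 1 left without any 1 of the Ctrl-AM replicates or without Tumor-AM replicate 2 or 3. All genes called there, 1100, ran from 535 to 1255 when single samples were left out, at 535, 682 and 546 without Ctrl-AM replicate 1, 2 and 3 and 675 without Tumor-AM replicate 3. The difference of Spi1 between the AM groups turned to -0.0056 (quantile normalization), -0.13 (TPM), -0.0041 and -0.013 (without Ctrl-AM replicate 3 and Tumor-AM replicate 1), against up to 0.020 without other single samples, and that of Rxra to -0.036, -0.12, -0.091 and -0.0002 (quantile normalization, TPM, without Ctrl-AM replicate 2 and Tumor-AM replicate 1), against up to 0.11 without other single samples. After TPM the median log2 difference of all genes from Ctrl-AM was -0.11 in Tumor-AM and -0.22 in Tumor-macrophage. As deposited these medians were 0.014 and -0.0082. The cause of these changes was not tested.

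Deviations of same-numbered samples from their group means correlated at -0.062 to 0.159 over the 3 comparisons. Between Tumor-macrophage and Tumor-AM they correlated at 0.026, 0.096 and 0.109, and those of differently numbered samples at -0.101 to 0.0062. With 3 samples a group, such values cannot decide whether the numbers pair the samples. A replicate block gave 938, 5069 and 5772 calls over all genes in the 3 comparisons, in place of 1100, 5191 and 5860, and 6 of 9 same-numbered pairs correlated best with their own number. The block also ended the call of Cebpb between the AM groups (limma, adjusted p = 0.0681) and changed no other call of a member. Maf did not pass the filter between the AM groups in 4 of the 18 alternatives.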
